A study of Homo sapiens with 8 samples.

Results

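Genes for the factors that start and extend protein synthesis were followed in SRA01/04 cells, a human lens epithelial line immortalised with a viral large T antigen. The set held every protein-coding gene of GENCODE release 29 whose symbol starts with EIF1, EIF2B, EIF2S, EIF3, EIF4, EIF5, EIF6, EEF1 or EEF2, leaving out the EIF2AK and EEF2K kinases and chromosome Y. This gave 63 of the 58735 genes in the table, or 62 if the methyltransferase gene EEF2KMT is left out with the kinase whose symbol it shares in part. There were 8 libraries: 4 from cells with a negative control short hairpin RNA (shControl, genotype WT) and 4 from cells with a hairpin that knocks down Smurf1 (shSmurf1). All cells had been given TGF-β2 (20 ng/ml, 48 h), and no untreated cells were compared. The comparison asks what SMURF1, a ubiquitin ligase of the TGF-β pathway, does in the behaviour of lens epithelial cells. The labels name no second hairpin and say nothing of separate clones. They call the libraries biological replicates without describing separate cultures, so a p-value here reflects library-to-library spread alone, which may be technical.

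Protein synthesis starts when a small ribosomal subunit carrying the initiator tRNA, brought by eIF2, is loaded on the capped end of an mRNA. eIF2B recharges eIF2 with GTP, eIF3 is the large scaffold on the subunit, and the cap complex eIF4F joins eIF4E, which binds the cap, with the helicase eIF4A and the scaffold eIF4G. The 4E-BP proteins hold eIF4E away from eIF4G until the kinase mTOR phosphorylates them. eEF1A then delivers each aminoacyl-tRNA and eEF2 moves the ribosome along the message.

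SMURF1 itself lay between 85.8 and 93.3 CPM (counts scaled to library size) in shControl and between 50.4 and 51.4 CPM in shSmurf1. Totals ran from 14688651 to 17030394 counts per library. shSmurf1 replicate 3 stood apart from the other shSmurf1 libraries, at 14.9 on the second principal component against −6.66 to −3.92, so counts are given with and without it. Of the lens genes checked, PAX6 was present in every library (29.9 to 39.5 CPM), but CRYAA, FOXE3, MAF and MIP had 4, 10, 1 and 3 counts over all 8 libraries. CRYAB and PROX1 had 73 and 23 counts, BFSP1 lay at 2.98 to 4.16 CPM and GJA1 at 41.5 to 83.2 CPM. Of the fibroblast genes, COL1A1 (1470.0 to 2137 CPM) and THY1 (197 to 225 CPM) were abundant. COL1A2 lay at 115 to 255 CPM, PDGFRB at 86.6 to 130 CPM and PDGFRA at 3.58 to 5.71 CPM. DCN had 32 counts over all 8 libraries. The leukocyte genes PTPRC and CD68 stayed at or below 0.757 and 0.336 CPM. Of the markers checked, GJA1, COL1A2 and the melanocyte gene MITF were lower in shSmurf1 (log2 fold changes −0.83, −1.01 and −0.40) and PDGFRB was higher (0.38). Their part in the results below was not tested. Fewer cells of a kind and less RNA per cell cannot be told apart in such libraries.

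Of the 63 factor genes, 58 had enough counts to be tested, and 13 were lower and 1 was higher in shSmurf1 (edgeR quasi-likelihood test, adjusted p under 0.05 over all genes). The 13 are 22.4% of the tested members, against 12.2% of all 15647 genes tested that were lower. Higher members were 1.72%, against 10.3% of all genes, and 22.5% of all genes changed in either direction. Among the 8226 genes with an average of at least 20 CPM, a cut chosen after the values were seen, 17.3% were lower and 11.4% higher. Of 81 tested ribosomal protein genes, 29 were lower and 0 higher (median log2 fold change −0.14), so the lean to lower values is not particular to the factors. The median log2 fold change was −0.06 over the tested members and 0.01 over all genes tested. With each library's trend with GC content removed these medians were −0.03 and 0.02, and with library totals alone −0.04 and 0.03. The groups did not overlap in 14 lower and 2 higher members, or among all genes tested in 13.1% and 10.6%. Without shSmurf1 replicate 3, 26 members passed, 24 lower (41.4%) and 2 higher (3.45%), against 33.7% of all genes, 17.3% lower and 16.4% higher. The 14 genes called with all libraries kept their calls in that fit.

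**Figure D1:**
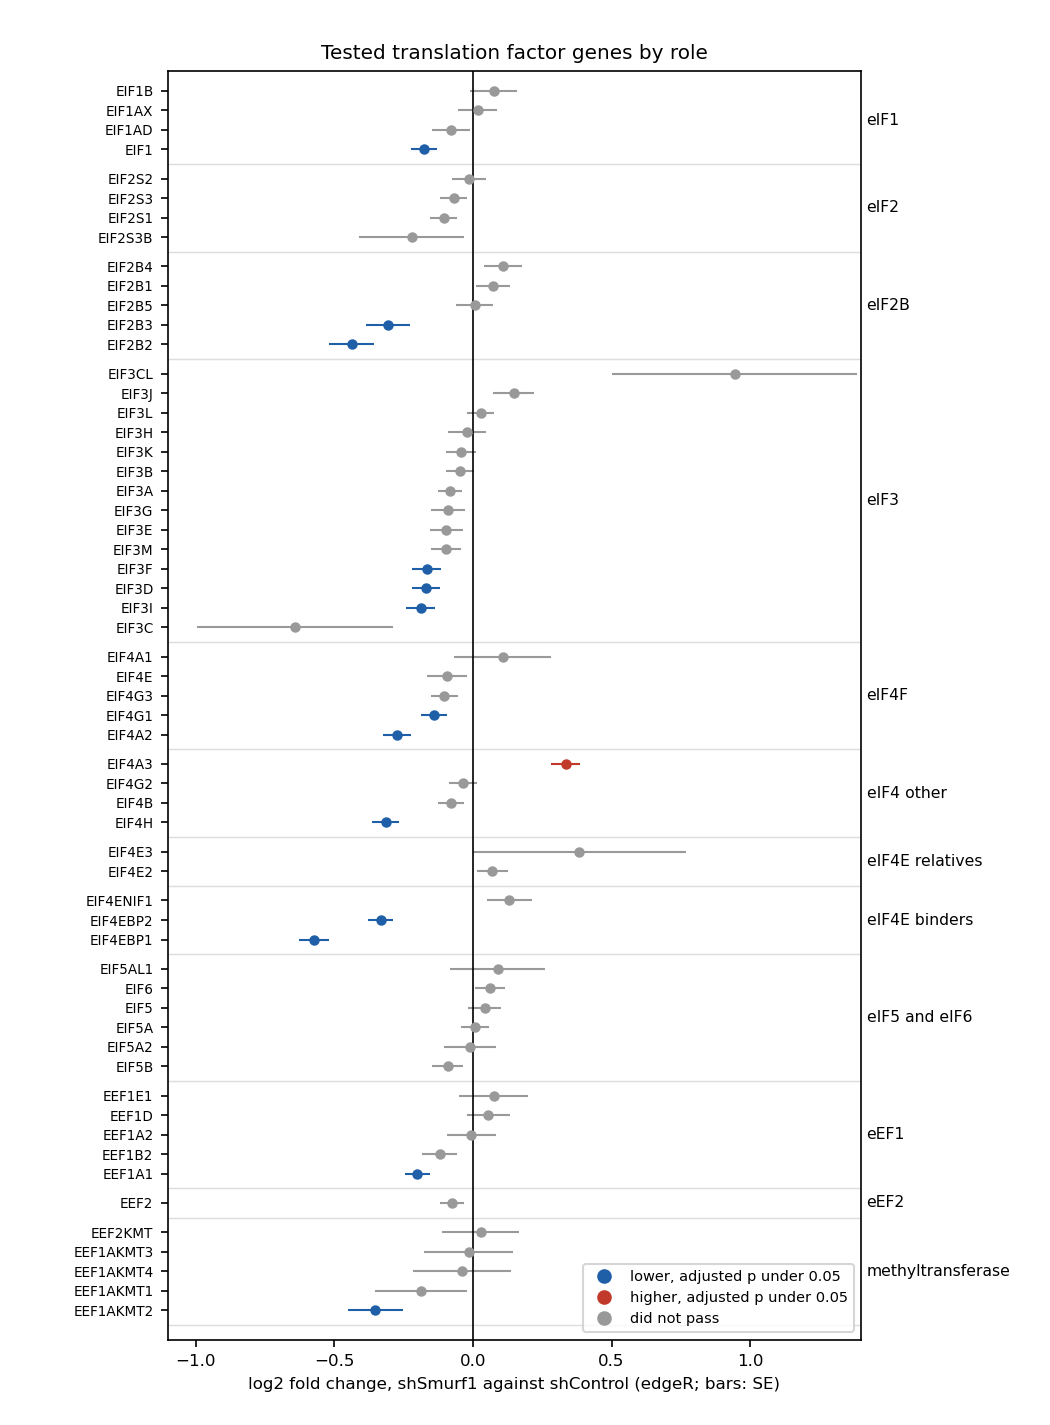
Log2 fold change of each tested factor gene (x axis, shSmurf1 against shControl; bars are SE from the edgeR fit), grouped by role. The 13 genes in blue passed as lower and EIF4A3, in red, as higher, and the other 44 did not pass.

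The changes were small. EIF4EBP1 moved furthest among called members, to 67.2% of control, and the others lay between 73.8% and 126% of control. Simulated counts are described with the processing. There 54% of genes planted with a change of 25% were recovered, and 10% of those planted with a change of 15%. Only 50 genes were planted at each size, while 3527 of the 15647 genes tested here were called. The adjustment over all genes was therefore stricter in the simulation, and these shares do not measure what the test sees in these data. A member that did not pass is still not shown to be unchanged. Apart from EIF3C, EIF3CL and EIF4E3, described below, the members that did not pass had log2 fold changes from −0.22 to 0.15. Together the 63 genes took 2.11% to 2.21% of the scaled counts in shControl libraries and 1.93% to 2.05% in shSmurf1 libraries, most of it from EEF1A1 and EEF2.

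Both tested genes for 4E-BP repressors of the cap-binding protein were lower, and EIF4EBP1 fell furthest of the called members. They were 66.7% of the 3 tested genes for eIF4E binders, against 12.2% of all genes tested that were lower. EIF4EBP1, which encodes 4E-BP1 (ENSG00000187840, chr8:38030341-38060365, plus strand, GRCh38), stood at 167, 160.5, 161 and 176 CPM in shControl replicates 1 to 4. In shSmurf1 it stood at 113, 108, 106 and 119 CPM. Every shSmurf1 library lay well below every shControl library. The log2 fold change was −0.57 ± 0.054 (SE; edgeR adjusted p = 2.16e-07). EIF4EBP2, the gene for its relative 4E-BP2 (ENSG00000148730, chr10:70404379-70428618, plus strand), read 168, 173, 169 and 168 CPM in shControl. Its shSmurf1 values were 134, 135, 137 and 132 CPM, again with no overlap and a narrow spread in both groups. It fell by 0.33 ± 0.046 on the log2 scale (edgeR adjusted p = 2.86e-05). EIF4EBP3, the remaining relative, had 5 to 16 counts per library and was not tested, and most of its exon sequence is shared with the readthrough gene ANKHD1-EIF4EBP3 (507 of 691 bases). EIF4ENIF1, which carries eIF4E to the nucleus, did not pass (0.13 ± 0.081).

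EIF4E, the gene for the cap-binding protein, did not pass with all libraries. Its shControl values were 62.0, 60.4, 57.9 and 56.7 CPM and its shSmurf1 values 51.6, 53.3, 65.0 and 52.3 CPM. Replicate 3 was the highest library of all, and the other 3 shSmurf1 libraries lay below every control. The log2 fold change was −0.09 ± 0.072 with replicate 3 and −0.175 ± 0.054 without it (edgeR adjusted p = 0.401 and 0.0123). With all libraries and the GC trend removed it was −0.02 ± 0.051 (edgeR adjusted p = 0.842). EIF4EBP1 stood at 155 CPM per kb of exon in shControl and 104 in shSmurf1, EIF4EBP2 at 23.4 and 18.5, and EIF4E at 4.21 and 3.95. The exon length is the union of all annotated exons, which is long for EIF4E and lowers its value. EIF4EBP1 and EIF4EBP2 together, relative to EIF4E per kb, came to 40.4 to 46.4 in shControl libraries and 25.5 to 34.7 in shSmurf1 libraries. EIF4E2, a cap-binding relative that represses chosen messages, did not pass (65.9 ± 1.10 and 69.1 ± 3.80 CPM, mean ± SD, n = 4 each). EIF4E3 lay at 0.460 to 1.85 CPM in shSmurf1 and did not pass, and EIF4E1B had 0 counts in every library.

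Of the 5 tested genes of the cap complex, EIF4E included, 2 were lower and 0 higher. Over all genes tested 12.2% were lower and 10.3% higher, and the difference from these shares was not tested. EIF4A2, 1 of the genes for the helicase eIF4A (ENSG00000156976, chr3:186783205-186789900, plus strand), was at 435, 445, 413 and 427 CPM in shControl and 353, 335, 389.7 and 345 CPM in shSmurf1. All shSmurf1 libraries were below all controls, with replicate 3 nearest to them. It fell by 0.275 ± 0.051 on the log2 scale (edgeR adjusted p = 0.000559). EIF4G1, the main scaffold (ENSG00000114867, chr3:184314495-184335358, plus strand), was at 876, 888, 874 and 883 CPM in shControl and 812, 813, 734 and 835 CPM in shSmurf1. The groups did not overlap, and replicate 3 was the lowest. The change of −0.14 ± 0.046 was just past the threshold (edgeR adjusted p = 0.0323) and lost the call in 8 of 17 other settings. EIF4G3, a second scaffold, had 147 to 157 CPM in shControl and 135 to 144 CPM in shSmurf1. It did not overlap but did not pass (−0.10 ± 0.049). EIF4A1, in most cells the more abundant helicase gene, gave 60 to 86 counts per library. Its exons share 1586 of 5316 bases with the readthrough gene SENP3-EIF4A1 and 2186 with AC016876.2, which had 3 to 15 and 1 to 5 counts per library. The level of EIF4A1 can therefore not be read from these counts.

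The helper of the helicase and the helicase of the exon junction complex moved in opposite directions. EIF4H, whose product stimulates eIF4A (ENSG00000106682, chr7:74174245-74197101, plus strand), stood at 568, 552, 551 and 582 CPM in shControl. In shSmurf1 it read 457, 450.3, 419 and 487 CPM, below every control. It fell by 0.31 ± 0.049 on the log2 scale (edgeR adjusted p = 9.79e-05). EIF4A3, a relative of eIF4A that sits in the exon junction complex laid on spliced mRNA (ENSG00000141543, chr17:80135214-80147183, minus strand), was the single called member that rose. Its values were 139, 141, 127 and 134 CPM in shControl and 174, 175, 169 and 164 CPM in shSmurf1, with all shSmurf1 libraries above all controls. It rose by 0.33 ± 0.051 on the log2 scale (edgeR adjusted p = 7.13e-05). EIF4B, which also stimulates eIF4A, and EIF4G2, a scaffold that does not bind eIF4E, did not pass (−0.08 ± 0.047 and −0.04 ± 0.051).

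**Figure D2:**
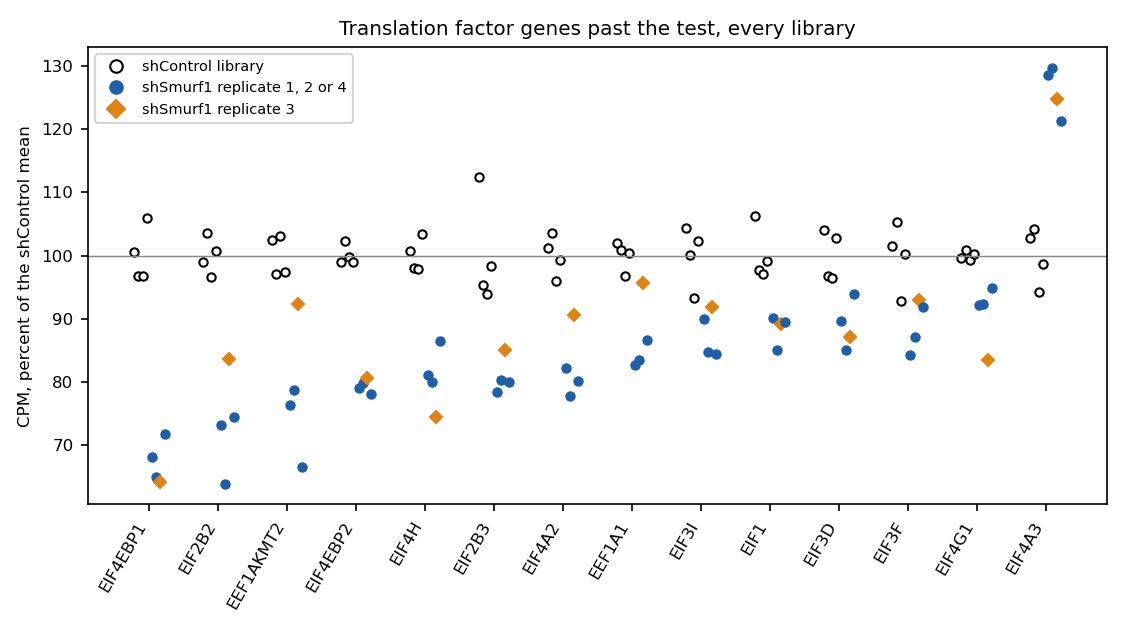
CPM of the 14 called factor genes in every library, as a percent of the gene's shControl mean (y axis). Open circles are shControl libraries, blue circles shSmurf1 replicates 1, 2 and 4, and orange diamonds shSmurf1 replicate 3. EIF4EBP1 and EIF4EBP2 show the clearest gaps among the lower genes, and EIF3F is the gene whose groups overlap.

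The eIF2B complex, the exchange factor that the integrated stress response blocks, was unevenly affected. EIF2B2, the gene for its beta subunit (ENSG00000119718, chr14:75002911-75012366, plus strand), was at 34.9, 36.5, 34.1 and 35.5 CPM in shControl and 25.8, 22.5, 29.45 and 26.2 CPM in shSmurf1. No library crossed over, and the gene fell by 0.44 ± 0.081 on the log2 scale (edgeR adjusted p = 0.000498). EIF2B3, for the gamma subunit (ENSG00000070785, chr1:44850522-44986722, minus strand), was at 32.5, 27.5, 27.1 and 28.4 CPM against 22.6, 23.2, 24.5 and 23.1 CPM. Control replicate 1 was the highest, and the groups stayed apart without it. The log2 fold change was −0.31 ± 0.080 (edgeR adjusted p = 0.00866). EIF2B1 (0.07 ± 0.061) and EIF2B5, the catalytic epsilon subunit (0.01 ± 0.066), did not pass. Nor did EIF2B4 (0.11 ± 0.068), although its libraries read 29.2 to 30.7 CPM in shControl and 31.2 to 32.9 CPM in shSmurf1.

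Of the 4 genes of eIF2 itself, its substrate, 0 passed with all libraries by edgeR, DESeq2 or limma-voom, and 1, EIF2S1, had an unadjusted edgeR p under 0.05. With 22.5% of all genes tested passing by edgeR, 0 of 4 does not set eIF2 apart. EIF2S1, EIF2S2 and EIF2S3, for the alpha, beta and gamma subunits, had log2 fold changes of −0.11 ± 0.049, −0.01 ± 0.061 and −0.07 ± 0.050. EIF2S1 was at 528, 537, 497 and 503 CPM in shControl and 466, 470.3, 519.6 and 463 CPM in shSmurf1. Replicate 3 lay among the controls and the other 3 shSmurf1 libraries below them. Without that library EIF2S1 passed (−0.14 ± 0.035, edgeR adjusted p = 0.00191), as did EIF2S3 (−0.11 ± 0.037, edgeR adjusted p = 0.0243). With all libraries and the GC trend removed they stood at −0.03 and −0.02 (edgeR adjusted p = 0.566 and 0.717). In shControl the subunits were close in level, at 91.4, 81.1 and 81.2 CPM per kb.

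EIF1, which guards the choice of start codon (ENSG00000173812, chr17:41688885-41692668, plus strand), was at 381, 350.2, 348 and 355 CPM in shControl and 323, 305, 319 and 321 CPM in shSmurf1. The groups did not overlap, and it fell by 0.18 ± 0.047 on the log2 scale (edgeR adjusted p = 0.00897). Its relative EIF1B, at 22.03 ± 1.83 and 23.2 ± 1.36 CPM (mean ± SD, n = 4 each), did not pass, nor did EIF1AX or EIF1AD.

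Of 14 eIF3 genes, 3 were lower (21.4%, against 12.2% of all genes tested), 0 were higher (against 10.3%) and 11 did not pass. EIF3I, a core subunit (ENSG00000084623, chr1:32221928-32231604, plus strand), read 242, 232, 216 and 237 CPM in shControl and 208, 196, 213 and 196 CPM in shSmurf1 (−0.19 ± 0.051, edgeR adjusted p = 0.0109). EIF3D, which can itself bind the cap of some messages (ENSG00000100353, chr22:36510850-36529436, minus strand), read 161, 149.7, 149 and 159 CPM in shControl. In shSmurf1 it read 139, 132, 135 and 145 CPM (−0.17 ± 0.051, edgeR adjusted p = 0.0217). In both genes the lowest control stayed above the highest shSmurf1 library. EIF3F (ENSG00000175390, chr11:7970251-8001862, plus strand) passed narrowly, at 182 ± 9.55 and 162 ± 7.45 CPM (mean ± SD, n = 4 each; edgeR adjusted p = 0.0287). Control replicate 3 and shSmurf1 replicate 3 were both at 169 CPM, so its groups met. EIF3D lost the call in 3 of 17 other settings and EIF3F in 8.

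EIF3A, the largest scaffold subunit, differed by less but with little spread, at 456 ± 6.05 and 430.0 ± 1.64 CPM (mean ± SD, n = 4 each). Its groups did not overlap, yet the change of −0.08 ± 0.042 did not pass (edgeR adjusted p = 0.169). DESeq2 and limma-voom also called 3 eIF3 genes lower and 0 higher, and at an unadjusted edgeR p under 0.05 there was 1 higher, EIF3CL. Without shSmurf1 replicate 3, EIF3E, EIF3H and EIF3M also passed as lower (−0.16, −0.11 and −0.13). With all libraries and the GC trend removed they stood at −0.01, 0.04 and −0.01 and did not pass. EIF3J, the loosely bound subunit, had the largest positive value of the well-counted subunits (0.15 ± 0.073) and did not pass. With the GC trend removed it passed as higher (0.22 ± 0.052, edgeR adjusted p = 0.00173), and EIF3G passed as lower (−0.16 ± 0.041, edgeR adjusted p = 0.00433).

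EIF3C and its near-identical copy EIF3CL are uncertain, since reads can match both. EIF3C gave 587, 1036, 247 and 455 counts in shControl and 258, 708, 209 and 296 counts in shSmurf1. EIF3CL gave 35 to 61 counts in 7 libraries and 260 in shSmurf1 replicate 3. Summed, they reached 18.9 to 72.4 CPM in shControl and 20.3 to 49.9 CPM in shSmurf1, and no other eIF3 gene varied as much among replicates. EIF3C had 5.33 ± 3.33 CPM per kb in shControl (mean ± SD, n = 4), against 134 for EIF3I and 64.2 for EIF3A, whose proteins share a complex with it.

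**Figure D3:**
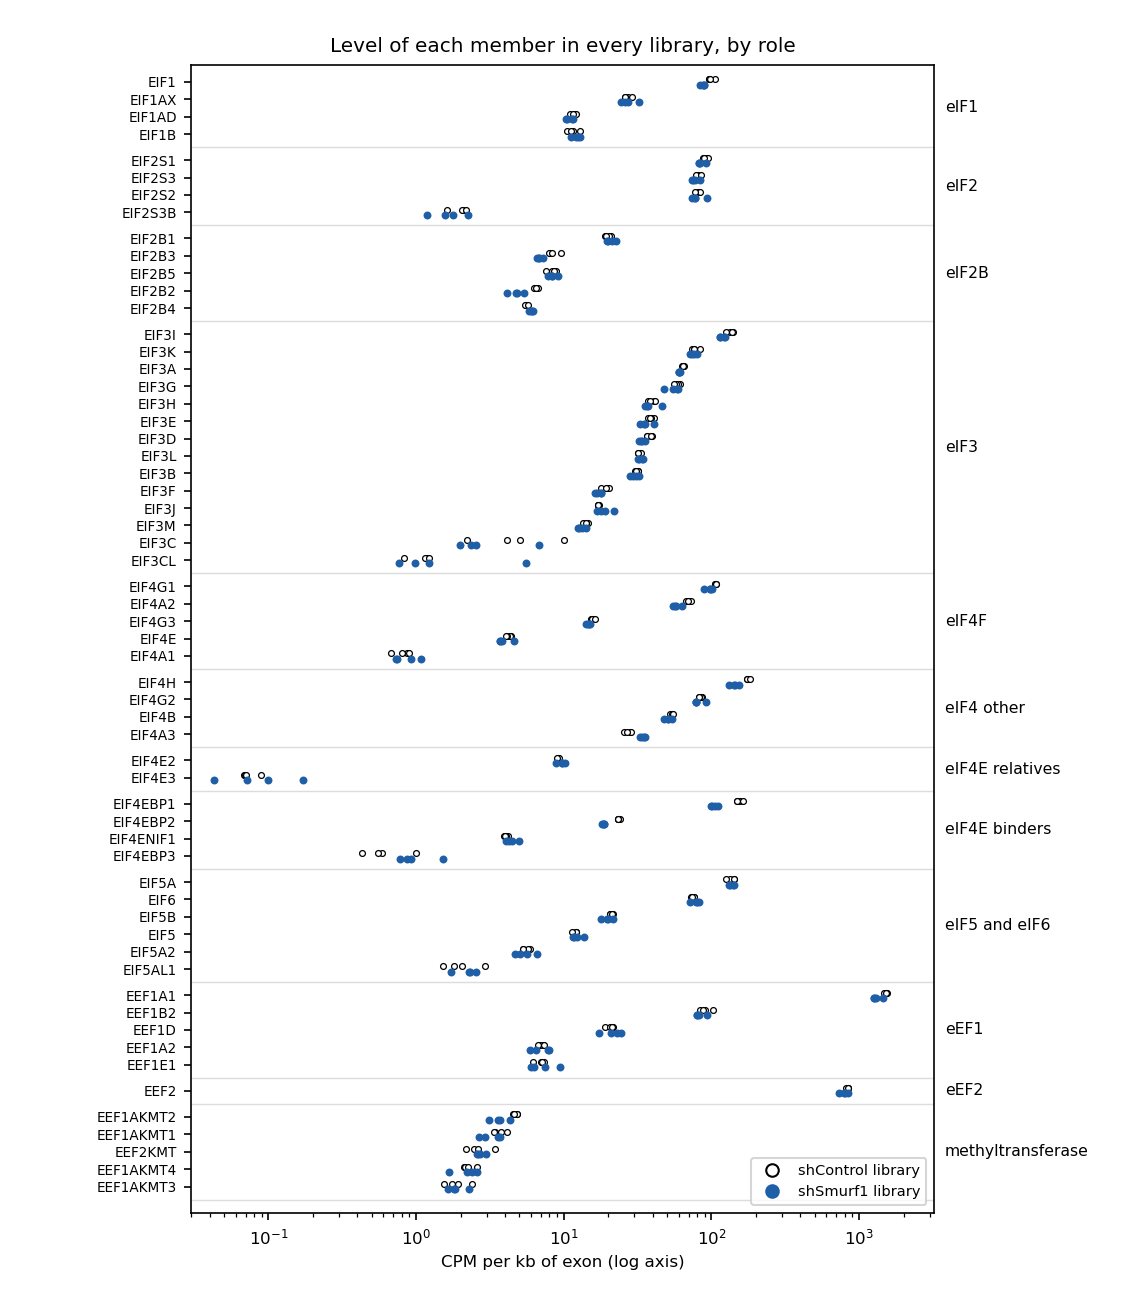
Level of each factor gene with counts, as CPM per kb of exon on a log axis, by role. Open circles are the shControl libraries and filled circles the shSmurf1 libraries. EEF1A1 and EEF2 stand above all others, and EIF3C and EIF3CL are spread far more than the other eIF3 genes.

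Of the 6 eIF5 and eIF6 genes, 0 passed with edgeR, DESeq2 or limma-voom, and 0 had an unadjusted edgeR p under 0.05. Over all genes tested 22.5% passed with edgeR, so 0 of 6 does not set these genes apart. EIF5A, whose hypusine-bearing product helps ribosomes through difficult stretches, was at 400.5, 374, 356 and 403 CPM in shControl and 399, 373, 374 and 395 CPM in shSmurf1. The shSmurf1 libraries lay within the range of the shControl libraries, with a log2 fold change of 0.01 ± 0.050. EIF5 and EIF5B, the GTPase activator of eIF2 and the factor that joins the subunits, had 0.04 ± 0.059 and −0.09 ± 0.056, and EIF6, which keeps the large subunit free, 0.06 ± 0.054. EIF5A2 and the retrocopy EIF5AL1 did not pass. EIF5B did without shSmurf1 replicate 3 (−0.14 ± 0.042, edgeR adjusted p = 0.0123), but stood at −0.01 with all libraries and the GC trend removed.

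EEF1A1, the gene for the main carrier of aminoacyl-tRNA (ENSG00000156508, chr6:73515750-73523797, minus strand), was the most abundant member. It stood at 9185, 9083, 8713 and 9038 CPM in shControl and at 7442, 7506, 8615 and 7794 CPM in shSmurf1. All shSmurf1 libraries were lower, although replicate 3 was only just below control replicate 3. The log2 fold change was −0.20 ± 0.045 with it and −0.25 ± 0.027 without it (edgeR adjusted p = 0.00306 and 3.28e-08). EEF1A2, the form typical of muscle and neurons, was at 7.02 CPM per kb against 1514 for EEF1A1 in shControl, and did not pass (−0.01 ± 0.088). EEF1B2, an exchange factor of eEF1A, passed without replicate 3 (−0.17 ± 0.049, edgeR adjusted p = 0.00600) and EEF1D, its companion, passed as higher there (0.145 ± 0.047, edgeR adjusted p = 0.0160). With all libraries and the GC trend removed they stood at −0.10 and −0.02 and did not pass. With all libraries and no GC step neither passed (−0.12 ± 0.064 and 0.055 ± 0.077).

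EEF2, the translocation factor, was at 3369, 3365, 3291 and 3402 CPM in shControl and 3190.3, 3245, 2933 and 3377 CPM in shSmurf1. Replicate 3 was the lowest library and replicate 4 lay among the controls. The change of −0.07 ± 0.044 did not pass (edgeR adjusted p = 0.249), but passed once each library's trend with GC content was removed (−0.14, edgeR adjusted p = 0.00135). EEF1G, another subunit of the exchange factor, had 0 counts in all 8 libraries, which allows up to 0.179 to 0.202 CPM. Its exons lie inside another annotated gene, AP002990.1, over 2714 of 2716 bases, and that gene gave 49 to 70 counts per library. EEF1G is therefore not shown to be silent. The readthrough genes EEF1E1-BLOC1S5 and EEF1AKMT4-ECE2 also had 0 counts throughout. EEF1E1-BLOC1S5 shares 393 of its 768 exon bases with EEF1E1 and 375 with BLOC1S5. EEF1AKMT4-ECE2 shares 480 of 3445 with EEF1AKMT4 and 2965 with ECE2. These readthrough genes are therefore not shown to be silent either.

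Among the methyltransferase genes named for elongation factors, EEF1AKMT2, whose product modifies a lysine of eEF1A, was lower (ENSG00000203791, chr10:124748149-124791870, minus strand). It was at 20.3, 19.2, 20.4 and 19.3 CPM in shControl and 15.1, 15.6, 18.3 and 13.2 CPM in shSmurf1, with no overlap. The log2 fold change was −0.35 ± 0.098 (edgeR adjusted p = 0.0131). EEF1AKMT1, EEF1AKMT3, EEF1AKMT4 and EEF2KMT, all at or below 10.7 CPM, did not pass.

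Many messages of the translation machinery begin with a terminal oligopyrimidine tract, a cytosine followed by a run of pyrimidines through which mTOR and LARP1 control their use, with 4E-BP proteins contributing. Start sites from RefSeq (GRCh38.p14) matched 50 of the 63 members by symbol. The following windows of 30 bases, 10 before and 20 from the annotated start on the transcribed strand, show members with and without such a start. Capitals mark the tract.
EEF1A1: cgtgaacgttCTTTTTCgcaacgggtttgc
EEF2: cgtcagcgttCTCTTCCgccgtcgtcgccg
EIF4B: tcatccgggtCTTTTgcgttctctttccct
EIF4A2: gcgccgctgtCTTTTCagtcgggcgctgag
EIF3F: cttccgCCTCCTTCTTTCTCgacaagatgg
EIF4A3: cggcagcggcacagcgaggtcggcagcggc
EIF4H: ctcgctcaccctggttcctctcggagcgga

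These windows lie at chr6:73521013-73521042 (minus strand), chr19:3985444-3985473 (minus), chr12:53006446-53006475 (plus), chr3:186783567-186783596 (plus), chr11:7987327-7987356 (plus), chr17:80147109-80147138 (minus) and chr7:74174346-74174375 (plus). The tract was searched as a C followed by at least 4 bases that are each C or T, with the C within 5 bases of the start, on the transcribed strand only. It was found in 18 of 50 members (36.0%), in 22.2% of 14896 protein-coding genes and in 76.1% of 67 ribosomal protein genes, the classic carriers. Of 17 tested members with the tract, 6 were lower and 0 higher, with a median log2 fold change of −0.10, and the same counts came from DESeq2, limma-voom and an unadjusted edgeR p under 0.05. Of 28 without it, 6 were lower and 1 higher, with a median of −0.02. Over all genes tested 12.2% were lower and 10.3% higher, and over those of at least 20 CPM 17.3% and 11.4%. The difference between members with and without the tract was not tested. EEF1A1 and EIF4A2 passed as lower and EEF2 and EIF4B, with tracts at the same position, did not. The match describes letters near an annotated start, and whether these messages carry the tract in SRA01/04 cells was not measured.

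Neighbouring genes moved with some of the called members. For each member the median log2 fold change of the 20 nearest tested genes on each side was taken. EIF4A3 rose amid neighbours with a median of 0.43 (quartiles 0.33 and 0.69), more than its own change. EIF4H, on chromosome 7, fell amid neighbours at −0.29 (−0.39 and −0.06), nearly its own −0.31. EIF1 (−0.18) lay at its neighbours' −0.20, and EIF2B3 (−0.31) and EIF2B2 (−0.44) lay beyond neighbours at −0.19 and −0.15. In these 5 of the 14 called members the neighbours' median was at least 0.12 in size, and so it was in 14 of the 58 tested members. The cut of 0.12 was not set beforehand, and EIF3D lies just under it with neighbours of the opposite sign. By contrast EIF4EBP1, EIF4EBP2 and EEF1AKMT2 fell amid neighbours at −0.02, 0.01 and 0.04, and EEF1A1 and EIF3F amid neighbours at −0.01 and 0.04. EIF3D fell where its neighbours were at 0.119. EIF3I, EIF4A2 and EIF4G1 fell amid neighbours at −0.10, −0.08 and −0.05. The neighbours' median had the member's own sign in 10 of the 14 called members and in 38 of the 58 tested. The part of the neighbourhood in these changes was not tested.

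**Figure D4:**
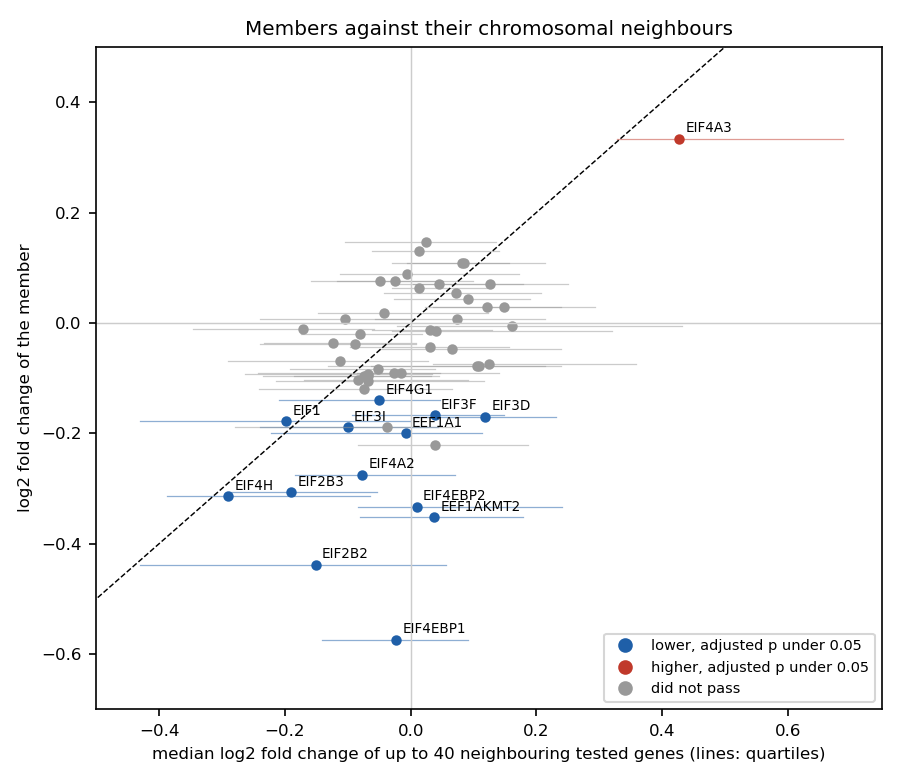
Log2 fold change of tested members (y axis) against the median of up to 40 neighbouring tested genes (x axis; horizontal lines span the quartiles; dashed line, equal values; EIF3C, EIF3CL and EIF4E3 not drawn). EIF4A3, EIF4H and EIF1 lie near the dashed line, and EIF4EBP1 lies far below neighbours that centre near 0.

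The deviation of shSmurf1 replicate 3 differed with the base composition of the genes. Of 56 tested members other than EIF3C and EIF3CL, that library was above the other 3 shSmurf1 libraries in 30 (median GC content of the longest transcript 42.2%) and below them in 12 (median 56.7%). Across these 56 genes its deviation from the other 3 libraries had a Pearson correlation of −0.55 and a Spearman correlation of −0.71 with GC content. The genes share the same libraries, so this is a description. The 12 members called in addition without it were EEF1B2, EIF2S1, EIF2S3, EIF3E, EIF3H, EIF3M, EIF4B, EIF4E, EIF4G2, EIF4G3 and EIF5B, all lower, and EEF1D, which was higher. With the GC trend removed and all libraries kept, 0 of these 12 passed with edgeR, their log2 fold changes ran from −0.10 to 0.04, and the smallest adjusted p was 0.146. EIF3H stood at 0.04, EIF4G2 at 0.03 and EEF1D at −0.02 there, on the other side of 0 from their values without replicate 3. In the same fit 14 members were lower and 2 higher, against 14.4% and 13.9% of all genes, and 13 of the 14 original calls remained. EEF2 and EIF3G were gained as lower and EIF3J as higher, and EIF3F was lost.

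**Figure D5:**
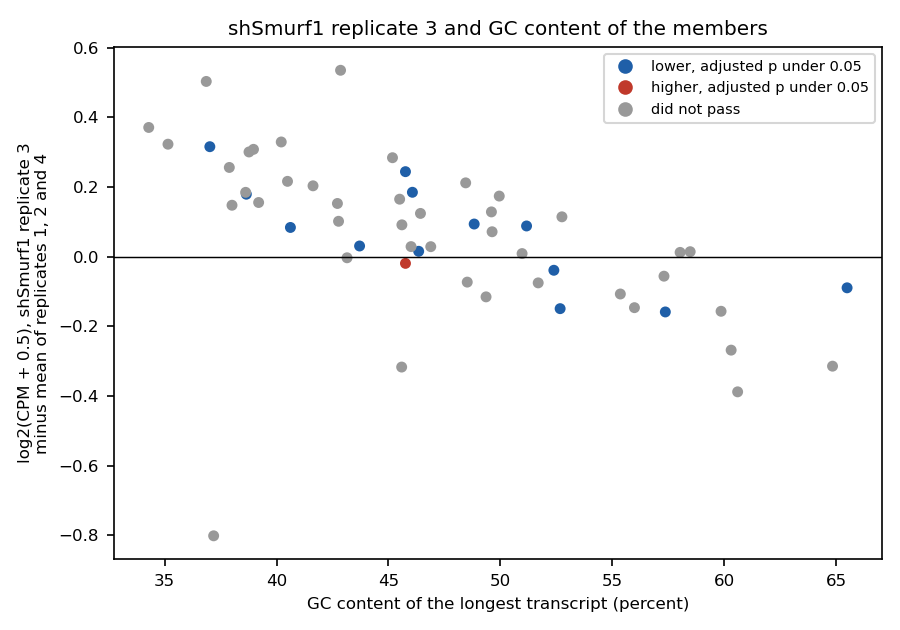
Difference between shSmurf1 replicate 3 and the mean of the other 3 shSmurf1 libraries, in log2(CPM + 0.5) (y axis), against GC content (x axis), for 56 factor genes. Genes of low GC content tend to lie above 0 and those of high GC content below. The lowest point is EIF4E3, which had few counts.

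Paralogs were compared within each library, over 8 pairs chosen from their known kinship. The log2 ratio of EIF4EBP1 to EIF4EBP2 was −0.01, −0.11, −0.07 and 0.07 in shControl and −0.24, −0.33, −0.36 and −0.15 in shSmurf1, a difference of −0.24 with no overlap. The ratio of EIF1 to EIF1B was 4.025 ± 0.066 in shControl and 3.77 ± 0.055 in shSmurf1 (mean ± SD, n = 4 each), also with no overlap. Each had an exact two-sided permutation p of 0.0286, the smallest that 4 against 4 libraries allow. The adjusted permutation p was 0.0762 over the 8 pairs, so none passed. A pair at this smallest p can pass only if several other pairs reach it too, so the failure says little about a single pair. EIF4A1 to EIF4A2 had the same p but rests on the uncertain counts of EIF4A1. For EIF4G1 to EIF4G3, EIF4G1 to EIF4G2, EIF5A to EIF5A2, EEF1A1 to EEF1A2 and EIF4E to EIF4E2 the exact permutation p ranged from 0.143 to 0.886.

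The surrounding pathway was read from 4 lists, with the same fit. Of 20 partners of initiation, 4 were lower and 0 higher, with a median log2 fold change of −0.10. PABPC1, the poly(A)-binding protein that bridges to eIF4G, fell from 1398 ± 32.9 to 1147 ± 72.4 CPM (mean ± SD, n = 4 each; −0.29 ± 0.047). PABPC4 (−0.21 ± 0.046), MCTS1, a recycling and reinitiation factor (−0.35 ± 0.077), and CYFIP2, of a family that binds eIF4E (−0.69 ± 0.083), were the others. At an unadjusted edgeR p under 0.05, 7 were lower and 0 higher, and DESeq2 and limma-voom gave 4 and 0. PABPC4 fell amid neighbours at −0.18, near its own value. The neighbours of PABPC1, MCTS1 and CYFIP2 stood at −0.05, −0.02 and 0.0015. Of 18 partners in elongation, termination and recycling, 2 were lower and 0 higher (median −0.09), DPH2 (−0.31 ± 0.093) and DPH5 (−0.395 ± 0.107), enzymes of the diphthamide that eEF2 carries. DESeq2 and limma-voom gave the same counts, and at an unadjusted edgeR p under 0.05 there were 3 lower and 0 higher. Their neighbours stood at −0.16 and −0.27. Without shControl replicate 4 neither passed (edgeR adjusted p = 0.0502 and 0.0544), and DPH2 was also lost without shControl replicate 1 or 3.

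Of 21 kinases, phosphatases and brakes of the factors, 2 were lower and 1 higher (median −0.04). DESeq2, limma-voom and an unadjusted edgeR p under 0.05 each gave 3 lower and 1 higher, and with the GC trend removed 4 were lower. PDCD4, an inhibitor of eIF4A, fell from 74.8 ± 3.26 to 57.2 ± 3.27 CPM (mean ± SD, n = 4 each; −0.39 ± 0.060, edgeR adjusted p = 9.09e-05). The neighbours of PDCD4 stood at −0.07. RHEB, the GTPase that activates mTOR, fell (−0.35 ± 0.065) amid chromosome 7 neighbours at −0.20. RPTOR, a subunit of mTOR complex 1, rose (0.24 ± 0.075) amid neighbours at 0.41. The groups of RPTOR overlapped, and its call was kept only without shControl replicate 4 or without shSmurf1 replicate 3 when libraries were left out in turn. MTOR itself and the eIF2 kinases EIF2AK1 to EIF2AK4 did not pass, with values from −0.09 to 0.08. Of 13 genes of ATF4, the transcription factor translated when eIF2 is phosphorylated, and its targets, 7 were lower and 0 higher (median −0.26), as DESeq2 and limma-voom also gave, with 8 and 0 at an unadjusted edgeR p under 0.05. They included NUPR1 (−0.99 ± 0.16), PHGDH (−0.60 ± 0.050), PSAT1 (−0.58 ± 0.078) and SESN2 (−0.45 ± 0.083). The neighbours of these genes stood at 0.13, −0.19, −0.10 and −0.16, and those of ATF4 at 0.07. ATF4 fell from 358 ± 10.6 to 308 ± 9.33 CPM (mean ± SD, n = 4 each; −0.22 ± 0.046). The lower genes were 20.0%, 11.1%, 9.52% and 53.8% of the 4 lists in this order, beside 12.2% of all genes tested. With the GC trend removed 5, 3, 4 and 10 genes were lower, beside 14.4% of all genes. The lists were chosen with earlier results of these data known, so these shares are descriptions. For the kinases and brakes the share was 14.3% with DESeq2, on the other side of that value.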

How the data were processed

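Polyadenylated RNA of SRA01/04 cells was sequenced, per the labels' protocols. The authors deposited 1 table of raw read counts per gene, whole numbers without normalization. The submitters' processing notes name featureCounts (1.5.0-p3), HISAT2 (2.0.5), fastp and CASAVA. They name no genome build. All 58735 identifiers matched GENCODE release 29 (GRCh38), the source of symbols, coordinates and exon lengths. No strand-marking step is described, so reads cannot be assigned between a gene and a partner overlapping it on the other strand. Of the called members, EEF1A1, EIF2B2, EIF2B3, EIF3I and EIF4A2 overlap such a gene.

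Genes were kept by filterByExpr (minimum count 10, 15647 genes) and scaled by TMM. shSmurf1 was tested against shControl with edgeR's quasi-likelihood test (edgeR version 4.0.16, R version 4.3.3), two-sided, with Benjamini-Hochberg adjustment over all genes. SE is the log2 fold change over the root of F. Permutation tests used SciPy version 1.17.1, on counts with a prior of 0.5. Other settings used DESeq2 version 1.42.0 and limma version 3.58.1. On simulated counts for 15425 genes, the test recovered 10%, 54%, 96% and 100% of 50 genes each, above 10 CPM, planted with changes of 15%, 25%, 50% and 100%, and called 11 others. Limits from a count of 0 rest on 3 counts and cover counting error only. Replicates of a group differed by more than sampling noise.

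Named were all called members, the most abundant member per kb of each role, and up to 4 called genes per list. Others were named after their values were seen. The members and lists were chosen with earlier results of these data known.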

Additional observations from a re-analysis of the deposited data

Results flagged for a closer look

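In several members a single library lay far from the 3 others of its group, by a test of the gap against the range (Dixon's test at the 95% level, which chance alone passes in about 1 group of 20). Of 116 groups of 4 tested over the members, 8 passed, and shSmurf1 replicate 3 was the lone library in 6. EIF2S1 was at 519.6 CPM in shSmurf1 replicate 3 and at 462.9 to 470.3 in the others. EIF4G2 was at 790.1 CPM there against 676.7 to 683.5, and EIF4E at 65.02 CPM against 51.62 to 53.34. EIF3CL was at 17.09 CPM there against 2.35 to 3.78, EIF2S2 at 246.5 against 196.8 to 205.3 and EIF3H at 295.2 against 229.6 to 238.6. EIF3C was at 47.57 CPM in shSmurf1 replicate 2 and at 13.74 to 17.64 in the others, and EIF4E3 at 0.9547 CPM in shControl replicate 1 against 0.7413 to 0.757. The log2 ratio of EIF4G1 to EIF4G3 was 2.49 in shControl replicate 4, below the other controls, and that of EIF4G1 to EIF4G2 was −0.105 in shSmurf1 replicate 3, below the other shSmurf1 libraries.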

How the results depend on the processing

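Of the 14 called members, EEF1A1, EIF1, EIF2B2, EIF2B3, EIF3I, EIF4A2, EIF4A3, EIF4EBP1, EIF4EBP2 and EIF4H kept direction and call in all 17 other settings, with an adjusted p of at most 0.0451 in edgeR or the other tools. EEF1AKMT2 lost the call in 1 (without shSmurf1 replicate 4, adjusted p 0.0539), EIF3D in 3 (largest 0.078), EIF3F in 8 (0.106) and EIF4G1 in 8 (0.0875), and none of the 14 reversed. Higher members numbered 2 and higher eIF3 genes 1 without a low-count filter and with the GC trend removed, with or without a replicate block. With the GC trend removed, 1 initiation partner was higher, and 4 kinases and brakes were lower with or without a replicate block. Leaving out 1 library at a time gave 1 to 2 higher and 10 to 24 lower members, and 1 to 6 lower eIF3 genes (1 without shControl replicate 1 or 4, 6 without shSmurf1 replicate 3). It gave 4 to 8 lower initiation partners, 0 to 2 higher and 0 to 3 lower elongation partners, and 0 to 4 higher kinases and brakes. The replicate block gave 12 lower members and 1 higher: EIF3F and EIF4G1 were lost (adjusted p 0.0535 and 0.0516) and EIF3C was called lower. Same-numbered libraries had correlations of −0.176 to 0.0596 over 11867 genes, and only replicate 4 matched its own number best. No pairing by number was seen, but 4 libraries per group are too few to exclude it. Low counts limit EIF4EBP3, EIF4E3, EIF4A1 and the genes at 0 counts. EIF4EBP3, EIF4A1, EEF1G and the readthrough genes also share exons with other annotated genes, and the part of depth was not tested.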
